A study of Mus musculus with 16 samples.

Results

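The subject is a set of 10 genes known as markers of mesothelial cells, the flat cells that cover the organs and walls of the body cavities. They are Upk3b, Upk1b, Lrrn4, Msln, Muc16, Gpm6a, Wt1, Krt8, Krt18 and Krt19, and they were taken by gene symbol from the 45777 genes of the deposited table. Each symbol matched 1 row, and all 10 were among the 19189 genes tested. RNA came from the epididymal white adipose tissue of male mice, a visceral fat pad that lies against the epididymis. OE mice overexpressed leukotriene A4 hydrolase (LTA4H), the enzyme that makes leukotriene B4, in adipocytes, and Ctrl mice were their controls. The promoter behind the extra gene is not named in the labels. Every mouse of every group ate a high-fat diet with 60 kcal% fat from 4 weeks of age. The groups were OE and Ctrl mice aged 20 weeks, after 16 weeks of diet, and OE and Ctrl mice aged 8 weeks, after 4 weeks of diet, with 4 mice in each. Age and time on the diet therefore cannot be told apart. Each library holds RNA of the whole tissue, in which fewer cells of a type and less RNA per cell cannot be told apart.

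Mesothelium forms a single sheet over visceral fat, faces the peritoneal fluid and rests on a basement membrane. Its cells are epithelial in form, with apical microvilli and simple keratins, but arise from mesoderm and express the transcription factor Wt1. Uroplakins, mesothelin and the mucin Muc16 mark their surface, while Krt8, Krt18 and Krt19 are keratins of simple epithelia in general, the epididymal duct included.

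Depth was 33626901 to 67576994 counts per library. Lta4h, the overexpressed gene, had 270, 286, 278 and 239 CPM (counts scaled to library depth) in OE mice at 20 weeks (replicates 1 to 4), against 95.4, 82.4, 89.0 and 87.3 CPM in Ctrl mice. At 8 weeks it had 398, 251, 427 and 335 CPM in OE mice, against 104, 79.4, 85.4 and 90.0 CPM in Ctrl mice, so OE libraries were above Ctrl libraries at both ages. Adipoq, the adipocyte hormone adiponectin, averaged 2338 and 1711 TPM (transcript level per length, scaled to the same total in each library) in OE and Ctrl mice at 20 weeks, and 4469 and 4043 TPM in OE and Ctrl mice at 8 weeks. OE replicate 1 at 20 weeks and replicate 1 of both 8-week groups stood apart on the first principal component of log2 CPM, which held 55.8% of the variance. Their scores were 22.4, against -86.6 to -66.7 in the other OE libraries at 20 weeks, and -19.5 (OE) and -29.9 (Ctrl), against 68.8 to 125 in the other 8-week libraries. OE replicate 2 and Ctrl replicate 4 at 8 weeks held epididymal duct transcripts, with summed levels of 2424 and 3686 CPM over 15 such genes, against at most 164 CPM elsewhere. Most of both sums came from a single gene, Crisp1, at 2418 and 3672 CPM. The results were therefore also computed without these libraries.

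All 10 markers were detected in every library, the lowest count being 36 for Krt18. On the TPM scale, which is per transcript length, Upk3b was the most abundant, with a median of 78.5 TPM over 16 libraries. Msln followed at 27.1, Krt19 at 22.6, Gpm6a at 20.02, Upk1b at 16.1, Krt8 at 11.5, Lrrn4 at 11.2, Wt1 at 7.82, Krt18 at 6.49 and Muc16 at 0.865 TPM. Ranges over the 16 libraries overlapped for each pair of neighbours in this order. By the mean the keratins stood higher, Krt19 at 42.3, Krt8 at 32.4 and Krt18 at 17.9 TPM, and the order also differed between groups: in Ctrl mice at 20 weeks Krt8 averaged 6.46 ± 1.11 TPM and Wt1 11.2 ± 4.89 TPM (SD, n = 4). Upk3b was highest of the 10 in 13 libraries and highest of the 7 non-keratin markers in all 16, and Muc16 was lowest of the 10 in all 16. Keratin levels spread far more: Krt8 ran from 1.91 to 114 TPM, and Gpm6a from 3.90 to 26.5 TPM.

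The markers varied from mouse to mouse in 2 blocks that were not fully separate. For each pair, the Pearson correlation of log2 CPM was taken over the 16 libraries after subtracting each group's mean; it is a description, since the 2 values of a point share a library and its depth. Over the 21 pairs among the 7 non-keratin markers the median r was 0.858, with a range of 0.184 (Msln with Wt1) to 0.984 (Upk3b with Lrrn4). Upk3b and Upk1b, uroplakins known as partners in the plaques of the bladder lining, had r = 0.952. Among the keratins, Krt8 and Krt18, which assemble as an obligate pair into filaments, had r = 0.978, Krt18 and Krt19 had 0.880, and Krt8 and Krt19 had 0.835. Between keratins and non-keratin markers the median over 21 pairs was 0.174, and it ran from -0.203 to 0.594. Wt1 had the highest correlation with the keratins, 0.594 with Krt19, and the lowest mean of the 7 with the other non-keratin markers. The name mesothelial markers thus covers 7 genes that varied with one another, Wt1 less closely than the rest, and 3 keratins. Krt8 and Krt18 varied mostly apart from the 7 and, as given with the comparisons, with other epithelial genes. Krt19 lay between, with r = 0.479 to Gpm6a and 0.360 to Muc16, above the 0.184 of Msln with Wt1.

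**Figure D1:**
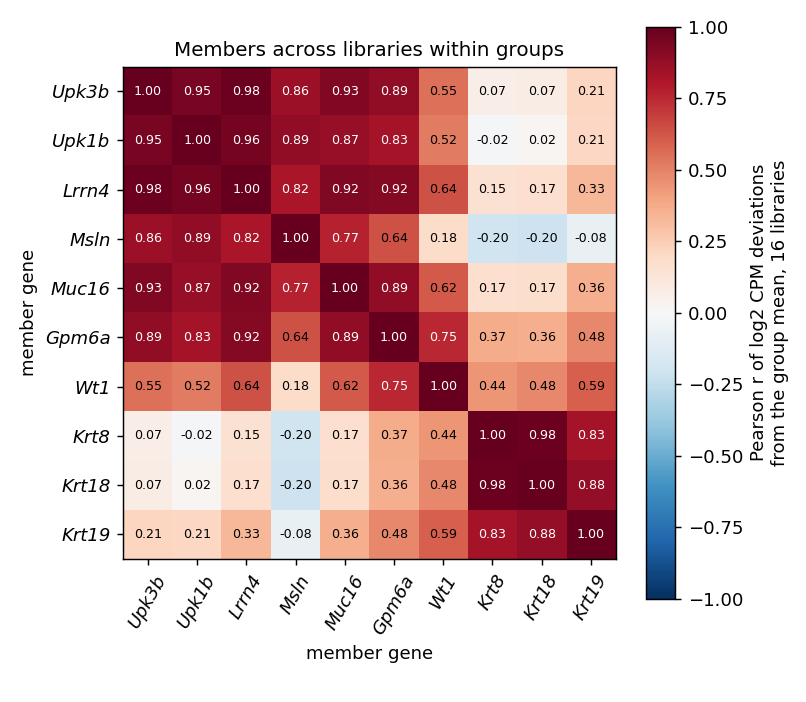
Pearson correlation of each pair of markers over 16 libraries, computed on log2 CPM after subtracting the mean of each group; both axes list the genes and the colour gives r. The 6 surface and membrane markers at the top left form a red block, and Wt1 is intermediate. Krt8, Krt18 and Krt19 form a block at the lower right, with Krt19 also at r = 0.594 to Wt1.

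The promoters of the 4 markers with the highest mean correlation to the others are shown because their transcripts moved together. Each stretch covers 250 bases before to 50 after a start site annotated by RefSeq (build GRCm38.p6), 5′ to 3′ on the gene's strand. The Lrrn4 window surrounds an internal start site, inside the gene's span of 132866686 to 132894010, and not the 5′ end of that span. Capitals mark matches, on either strand, to CATTCC, the letters bound by TEAD factors, and to the Sp1-type GC box GGGCGG.
Gpm6a (chr8:54779184-54779483, plus strand): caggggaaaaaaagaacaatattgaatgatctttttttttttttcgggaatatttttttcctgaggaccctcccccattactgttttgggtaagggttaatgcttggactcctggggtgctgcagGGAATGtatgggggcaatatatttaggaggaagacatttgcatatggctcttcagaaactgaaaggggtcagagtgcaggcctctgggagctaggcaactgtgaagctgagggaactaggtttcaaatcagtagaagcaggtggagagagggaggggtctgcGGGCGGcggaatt
Lrrn4 (chr2:132880813-132881112, minus strand): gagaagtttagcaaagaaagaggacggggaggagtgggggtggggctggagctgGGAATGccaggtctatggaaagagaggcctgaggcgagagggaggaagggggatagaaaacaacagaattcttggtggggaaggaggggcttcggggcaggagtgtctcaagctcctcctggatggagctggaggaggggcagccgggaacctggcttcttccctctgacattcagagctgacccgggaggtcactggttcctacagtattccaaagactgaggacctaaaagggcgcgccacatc
Muc16 (chr9:18674554-18674853, minus strand): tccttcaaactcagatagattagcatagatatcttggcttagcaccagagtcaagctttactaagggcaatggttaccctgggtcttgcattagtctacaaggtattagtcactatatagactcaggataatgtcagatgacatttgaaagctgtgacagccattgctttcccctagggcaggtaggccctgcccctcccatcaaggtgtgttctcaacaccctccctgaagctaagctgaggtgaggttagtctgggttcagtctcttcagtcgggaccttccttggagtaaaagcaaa
Upk3b (chr5:136038246-136038545, plus strand): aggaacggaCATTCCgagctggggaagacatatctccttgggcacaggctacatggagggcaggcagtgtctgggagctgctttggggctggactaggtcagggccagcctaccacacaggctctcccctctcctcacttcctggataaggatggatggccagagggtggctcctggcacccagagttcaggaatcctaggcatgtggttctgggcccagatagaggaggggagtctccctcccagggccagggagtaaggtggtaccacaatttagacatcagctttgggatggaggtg
In these windows CATTCC or its reverse complement GGAATG begins 125 bases before the start site in Gpm6a, 196 before it in Lrrn4 and 241 before it in Upk3b, and is not in the Muc16 window. It is in 14.7% of the 32851 promoter windows of the same table. GGGCGG was in the Gpm6a window alone of the 4, and it is in 35.7% of all windows. TATAAA, the TATA box, was in none of the 4 and is in 13.6% of all windows, whereas the Krt8 window holds it at the start site. GCGNGGGNG, letters bound by WT1 and EGR-type zinc fingers, was in none of the 7 windows listed for 6 of the markers (Gpm6a has a pair) and is in 12.3% of all. No motif overlapped another in the stretches shown. A match is a run of letters and was not tested as a binding site.

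In the values that follow, the 4 libraries of a group are given as replicates 1 to 4, in CPM scaled with edgeR's TMM factors. Upk3b (gene ID 100647, GRCm38 chromosome 5, 136038496 to 136044993), which encodes uroplakin 3b of the apical membrane, had 25.0, 45.1, 14.8 and 42.4 CPM in OE mice at 20 weeks, against 77.4, 55.1, 56.8 and 138 CPM in Ctrl mice. Values at 8 weeks were 147, 72.8, 123 and 85.3 CPM in OE mice, against 63.3, 88.6, 113 and 68.2 CPM in Ctrl mice. OE mice at 20 weeks lay below every library of the other 3 groups, which overlapped one another. Upk1b (22268, chromosome 16, 38773182 to 38800203), a tetraspanin that pairs with uroplakin 3 proteins, had 3.88, 9.46, 2.91 and 9.36 CPM in OE mice at 20 weeks, against 15.04, 9.56, 10.9 and 21.7 CPM in Ctrl mice. The 8-week values were 32.4, 17.6, 20.9 and 16.3 CPM in OE mice, against 12.3, 14.9, 20.3 and 12.45 CPM in Ctrl mice. Again OE mice at 20 weeks were below all others, though by a narrow gap to Ctrl replicate 2.

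Lrrn4 (320974, chromosome 2, 132866686 to 132894010), a membrane protein with leucine-rich repeats, had 9.16, 16.2, 5.47 and 15.8 CPM in OE mice at 20 weeks, against 30.7, 20.2, 22.3 and 50.3 CPM in Ctrl mice. In 8-week tissue it had 45.7, 30.04, 40.9 and 28.0 CPM in OE mice, against 20.6, 28.0, 38.2 and 24.6 CPM in Ctrl mice. OE mice at 20 weeks did not overlap any other group. In RefSeq this gene overlaps Crls1 (778 to 2206 counts per library), and since the strand setting of the counting is not given in the sources used here, reads of the shared stretch are uncertain. Crls1 itself had a log2 fold change of 0.12 ± 0.13 between OE and Ctrl mice at 20 weeks. Gpm6a (234267, chromosome 8, 54779434 to 55060878), a membrane glycoprotein best known from neurons, had 10.7, 15.7, 5.42 and 15.3 CPM in OE mice at 20 weeks, against 27.0, 12.46, 16.4 and 35.2 CPM in Ctrl mice. At 8 weeks the levels were 41.0, 29.6, 40.9 and 31.8 CPM in OE mice, against 14.1, 31.7, 34.2 and 28.3 CPM in Ctrl mice. Here OE and Ctrl mice overlapped at both ages, while OE mice at 20 weeks lay below OE mice at 8 weeks.

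Msln (56047, chromosome 17, 25748613 to 25754378) encodes mesothelin, a lipid-anchored surface glycoprotein. It had 11.2, 20.7, 7.70 and 21.5 CPM in OE mice at 20 weeks, against 27.2, 16.4, 26.4 and 37.4 CPM in Ctrl mice. Its 8-week levels were 82.2, 30.9, 47.1 and 41.7 CPM in OE mice, against 36.6, 29.7, 44.9 and 19.3 CPM in Ctrl mice. OE replicate 1 at 8 weeks stood high, and OE and Ctrl mice overlapped at both ages. Muc16 (73732, chromosome 9, 18495445 to 18674821), the large membrane mucin that binds mesothelin, had 5.52, 8.05, 2.78 and 7.62 CPM in OE mice at 20 weeks, against 11.9, 8.48, 11.5 and 26.4 CPM in Ctrl mice. At 8 weeks it had 19.2, 12.7, 15.2 and 13.7 CPM in OE mice, against 7.89, 12.8, 10.8 and 8.88 CPM in Ctrl mice. OE mice were below Ctrl mice at 20 weeks without overlap, and the groups overlapped at 8 weeks. Wt1 (22431, chromosome 2, 105126529 to 105173614), a zinc-finger transcription factor that progenitors of visceral fat also express in mice, had 7.19, 10.99, 6.81 and 9.02 CPM in OE mice at 20 weeks, against 17.0, 10.6, 10.8 and 25.0 CPM in Ctrl mice. Values at 8 weeks were 9.86, 18.2, 13.6 and 11.7 CPM in OE mice, against 6.80, 14.6, 14.0 and 12.6 CPM in Ctrl mice. The Wt1 groups overlapped in each of these comparisons.

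The keratins showed another order of libraries. Krt8 (16691, chromosome 15, 101996711 to 102004342), the type II partner, had 19.8, 4.91, 1.62 and 3.70 CPM in OE mice at 20 weeks, against 5.42, 4.44, 5.10 and 6.48 CPM in Ctrl mice. The 8-week values were 14.2, 69.4, 18.6 and 77.9 CPM in OE mice, against 6.64, 22.8, 87.1 and 90.2 CPM in Ctrl mice. OE replicate 1 stood above the other 7 libraries at 20 weeks, and at 8 weeks the libraries of each group spread over a wide range. Krt18 (16668, chromosome 15, 102028216 to 102032026), its type I partner, had 7.78, 2.89, 0.943 and 2.34 CPM in OE mice at 20 weeks, against 1.80, 2.22, 2.71 and 3.62 CPM in Ctrl mice. In 8-week tissue it had 5.33, 33.2, 6.39 and 30.3 CPM in OE mice, against 1.89, 6.996, 34.4 and 43.4 CPM in Ctrl mice. The same libraries were high as for Krt8. Krt19 (16669, chromosome 11, 100140810 to 100145926), a type I keratin, had 10.4, 5.61, 2.62 and 7.94 CPM in OE mice at 20 weeks, against 10.5, 7.72, 9.40 and 24.4 CPM in Ctrl mice. At 8 weeks the levels were 25.1, 87.1, 19.5 and 42.0 CPM in OE mice, against 13.1, 21.1, 43.5 and 103 CPM in Ctrl mice. Its highest libraries, OE replicate 2 and Ctrl replicate 4 at 8 weeks, were those with epididymal duct transcripts.

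**Figure D2:**
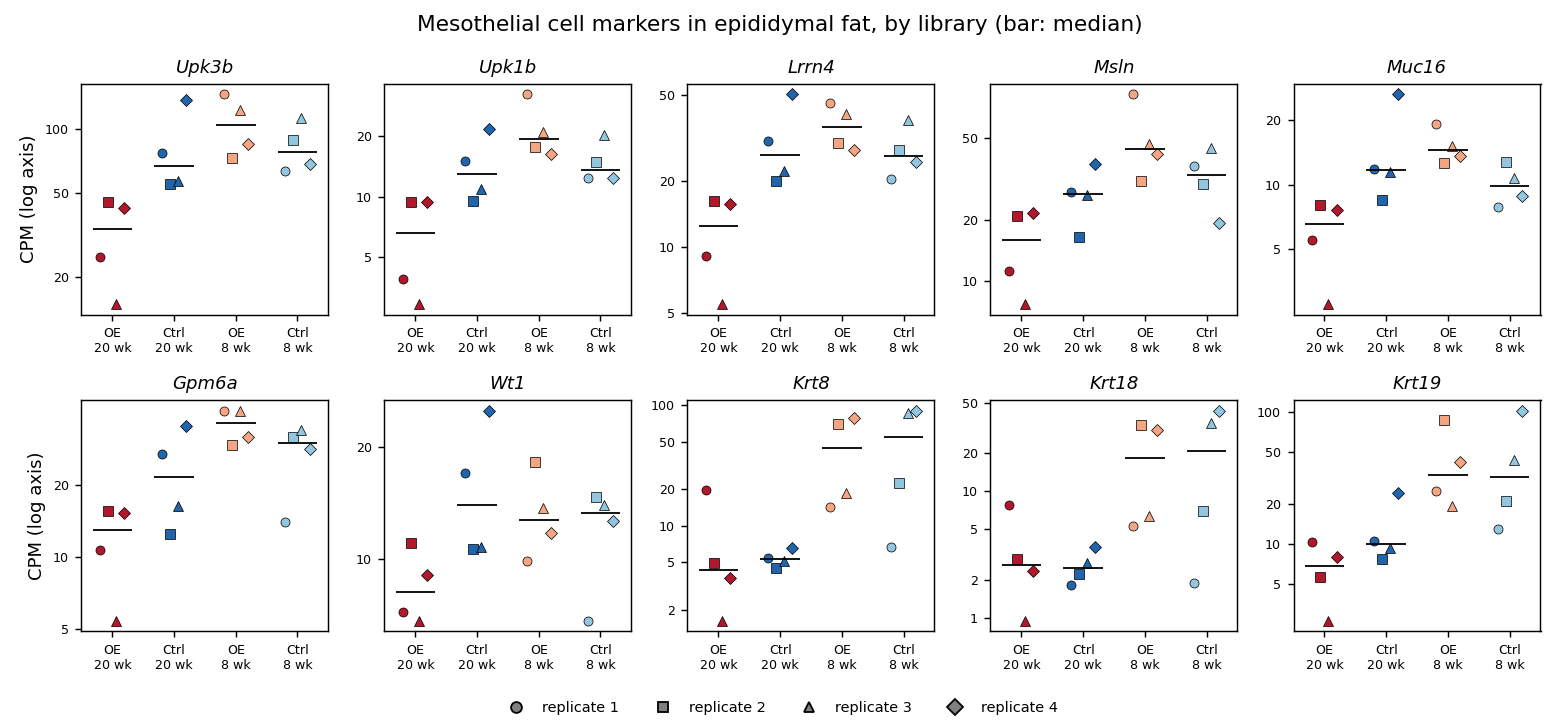
Level of each marker in CPM on a log axis in 16 libraries of epididymal fat, with 1 point per mouse, the marker shape giving the replicate number and the bar the group median. OE mice at 20 weeks have the lowest median of each non-keratin marker (Upk3b 14.8 to 45.1 CPM), while Krt8, Krt18 and Krt19 are high in some 8-week libraries of either genotype.

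The comparison of 20 with 8 weeks in OE mice follows the markers over age and diet in the presence of the extra LTA4H. Most fell: 8 of the 10 were called lower and 0 higher, while 9.91% of all genes tested were called lower and 13.1% higher, 23% in all. The median log2 fold change of the 10 was -1.74, against -0.03 for all genes. Both uroplakins fell, Upk3b to 31.8 ± 14.4 CPM at 20 weeks, against 107 ± 34.0 CPM at 8 weeks (SD, n = 4 each), and Upk1b to 6.40 ± 3.50 CPM, against 21.8 ± 7.34 CPM. In edgeR's quasi-likelihood fit, with Benjamini-Hochberg adjustment over every tested gene, Upk3b had a log2 fold change of -1.75 ± 0.38 (standard error, adjusted p = 0.00511), which is 3.36-fold lower. Upk1b had -1.77 ± 0.39 (edgeR adjusted p = 0.00533). Lrrn4 had a log2 fold change of -1.63 ± 0.36 (adjusted p = 0.00521 in the same edgeR fit), and Gpm6a one of -1.60 ± 0.37 (adjusted p = 0.00746). The binding partners Msln and Muc16 fell as well, Msln with a log2 fold change of -1.72 ± 0.39 (edgeR adjusted p = 0.00607) and Muc16 with -1.34 ± 0.36 (edgeR adjusted p = 0.0149). For these 6 genes every 20-week library of OE mice was below every 8-week library. The share of all genes separated in this way is not given here. Wt1 had 8.50 ± 1.92 CPM at 20 weeks and 13.4 ± 3.58 CPM at 8 weeks, a log2 fold change of -0.65 ± 0.30 that did not pass (edgeR adjusted p = 0.135). Without the 3 libraries that stood apart, the Muc16 call was lost (log2 fold change -1.17, edgeR adjusted p = 0.0565), and 8 of the 10 were called; without both libraries with epididymal transcripts, 7 were.

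Of the keratins in OE mice, Krt19 and Krt8 fell and Krt18 did not pass, with larger log2 fold changes and larger standard errors than those of the non-keratin markers. Krt19 had 6.63 ± 3.30 CPM at 20 weeks, against 43.4 ± 30.6 CPM at 8 weeks (SD, n = 4 each), with a log2 fold change of -2.71 ± 0.68 (edgeR adjusted p = 0.0113) and no overlap. Without OE replicate 2 at 8 weeks its log2 fold change was -2.12 and the call held. Krt8 had 7.50 ± 8.29 CPM at 20 weeks, against 45.0 ± 33.3 CPM at 8 weeks, with -2.59 ± 0.86 (edgeR adjusted p = 0.0427). This call was lost without any 1 of OE replicates 2, 3 or 4 at 20 weeks, OE replicates 2 or 4 at 8 weeks or Ctrl replicates 1 to 4 at 20 weeks, with edgeR adjusted p-values of 0.0538 to 0.121, and without OE replicate 1 at 20 weeks the log2 fold change was -3.72. Krt18 had -2.43 ± 0.89 and did not pass (edgeR adjusted p = 0.0625). It passed without OE replicate 1 at 20 weeks (-3.19, edgeR adjusted p = 0.0297), without Ctrl replicate 1 at 8 weeks (edgeR adjusted p = 0.0323) and without OE replicate 1 at 8 weeks (edgeR adjusted p = 0.0467), and also with DESeq2 (adjusted p = 0.0105) and voom (adjusted p = 0.0327).

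Other cell types moved over the same interval. Smooth muscle genes fell with the markers in OE mice: 7 of 8 were called lower at 20 weeks by edgeR, with a median log2 fold change of -2.36 and a summed level of 292 to 549.8 CPM at 20 weeks, against 687 to 4816 CPM at 8 weeks. DESeq2 called 4 of the 8 lower and voom 5. OE replicate 2 had the 4816 CPM, and the other OE libraries at 8 weeks had 687 to 947 CPM. Of 8 Schwann cell and nerve genes Scn7a was called lower and Mbp higher, with a median of -0.99 and sums of 141 to 189.0 CPM at 20 weeks, against 189.6 to 251 CPM at 8 weeks. In OE mice 10 of 10 macrophage genes were called higher at 20 weeks, with a median log2 fold change of 1.59 and a summed level of 4395 to 11044 CPM at 20 weeks, against 1693 to 3362 CPM at 8 weeks. Of mature adipocyte genes 7 of 10 were called lower, with a median of -0.77 and sums of 12730 to 23263 CPM at 20 weeks, against 17951 to 35229 CPM at 8 weeks. Of 10 genes of stromal progenitors Lum and Icam1 were higher and Dpp4 lower, with a median of -0.02 and sums of 2633 to 2982 CPM at 20 weeks, against 2609 to 2839 CPM at 8 weeks. Of 8 B cell genes Cd22 was higher, with a median of 0.18. The part of these cell types in the change of the mesothelial markers was not tested.

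In Ctrl mice only keratins were called over the same interval. The test of whether the change differed between genotypes, given below, called no marker. Krt8, Krt18 and Krt19 fell, 3 of the 10 markers, while 21.3% of all genes tested were called lower and 19.6% higher, 40.9% in all. The median log2 fold change of the 10 was -0.16, against -0.05 for all genes. Krt8 fell to 5.36 ± 0.85 CPM at 20 weeks, against 51.7 ± 43.2 CPM at 8 weeks (SD, n = 4 each), with -3.27 ± 0.89 (edgeR adjusted p = 0.0105) and no overlap. Krt18 had 2.59 ± 0.79 CPM at 20 weeks and 21.7 ± 20.3 CPM at 8 weeks, with -3.06 ± 0.92 (edgeR adjusted p = 0.0173), which moved to -2.48 without Ctrl replicate 4 at 8 weeks, and the call held. Krt19 had 13.01 ± 7.67 CPM at 20 weeks and 45.1 ± 40.5 CPM at 8 weeks, with -1.80 ± 0.65 (edgeR adjusted p = 0.0408). Without Ctrl replicate 4 at 8 weeks it was -0.996 and no longer called (edgeR adjusted p = 0.192). Its call was also lost without Ctrl replicate 3 at 8 weeks, OE replicate 4 at 8 weeks, OE replicate 2 at 20 weeks or any 1 of Ctrl replicates 1, 2 or 3 at 20 weeks, with edgeR adjusted p-values of 0.0507 to 0.107.

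None of the 7 non-keratin markers was called between 20 and 8 weeks in Ctrl mice by edgeR, DESeq2 or voom. In edgeR 0 of them had an unadjusted p under 0.05, while 9629 of the 19189 genes tested did. In the main edgeR fit their log2 fold changes ran from -0.28 for Msln to 0.53 for Muc16, with a median of -0.03. These sizes depended on the fit. In the alternatives other than leaving out single libraries, Gpm6a had -0.78 to -0.23 and Msln -0.56 to -0.22. Upk3b had -0.48 to -0.02 there and Upk1b -0.44 to -0.07. Lrrn4 had -0.27 to 0.15, Wt1 -0.07 to 0.43 and Muc16 0.01 to 0.53. For Upk3b the means were 81.9 ± 38.8 CPM at 20 weeks and 83.3 ± 22.6 CPM at 8 weeks (SD, n = 4 each). Its log2 fold change was -0.03 ± 0.37, with a 95% interval of -0.81 to 0.76, which includes differences of either sign. Libraries of Ctrl mice overlapped between the ages for each of the 7.

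Markers of other cell types also moved in Ctrl mice while those 7 were not called. Of smooth muscle genes 7 of 8 were called lower at 20 weeks by edgeR, with a median log2 fold change of -3.14 and sums of 204 to 338 CPM at 20 weeks, against 759 to 4934 CPM at 8 weeks. Ctrl replicate 4 had the 4934 CPM, and the other Ctrl libraries at 8 weeks had 759 to 824 CPM. In Ctrl mice DESeq2 called 4 of these 8 genes lower and voom 5. Mature adipocyte genes had 7 of 10 lower, with a median of -1.15, and macrophage genes 10 of 10 higher, with a median of 2.18. All 8 B cell genes were higher, with a median of 2.48, and voom called 4 of them. Of stromal progenitor genes Lum, Pdgfra, Anxa3, Icam1 and Dcn were higher, with a median of 0.22 over the 10. Their part in the keratin levels was not tested.

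The keratins shared their high libraries with genes of epithelia in general. Over 8 such genes, among them Epcam and Cdh1, cell adhesion proteins of epithelia, the summed level in OE mice at 20 weeks was 27.5, 2.27, 2.04 and 1.60 CPM, against 4.00, 2.33, 2.29 and 2.91 CPM in Ctrl mice. At 8 weeks it was 2.90, 160, 21.7 and 120 CPM in OE mice, against 2.63, 35.2, 130 and 238 CPM in Ctrl mice. The libraries with high sums were those with high Krt8. Some libraries were different. In Ctrl replicate 4 at 20 weeks the keratin sum of 34.5 CPM, most of it Krt19, was above the 14.4 to 17.8 CPM of the other 3 libraries of its group. Its general epithelial sum was 2.91 CPM and its non-keratin sum, 334 CPM, the highest of its group. OE replicate 1 at 8 weeks had a keratin sum of 44.6 CPM, near the 44.5 CPM of OE replicate 3. Their general epithelial sums were 2.90 and 21.7 CPM. The non-keratin sum of OE replicate 1, 377 CPM, was the highest of its group. Between 20 and 8 weeks 1 of the 8, Cldn3, a tight junction protein, was called lower in OE mice (median log2 fold change -3.21) and 8 of the 8 in Ctrl mice (median -7.22), where 21.3% of all genes were called lower. In Ctrl mice DESeq2 called 7 of the 8 lower, with no adjusted p for Cldn4, and voom called 1, Cldn3. Over all genes DESeq2 called 45.8% and voom 54.8% in that comparison. Over the 15 epididymal duct genes the sum at 20 weeks was 0.225 to 4.07 CPM in OE mice and 0.108 to 2.11 CPM in Ctrl mice, and at 8 weeks 2.40 to 2424 CPM in OE mice and 1.59 to 3686 CPM in Ctrl mice. Crisp1 made up most of the highest sum of each genotype at 8 weeks. Without both libraries high in Crisp1, Krt8 and Krt18 remained called in Ctrl mice and Krt19 did not (log2 fold change -0.997, edgeR adjusted p = 0.141). The part of these epithelial transcripts in the keratin levels was not tested further.

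**Figure D3:**
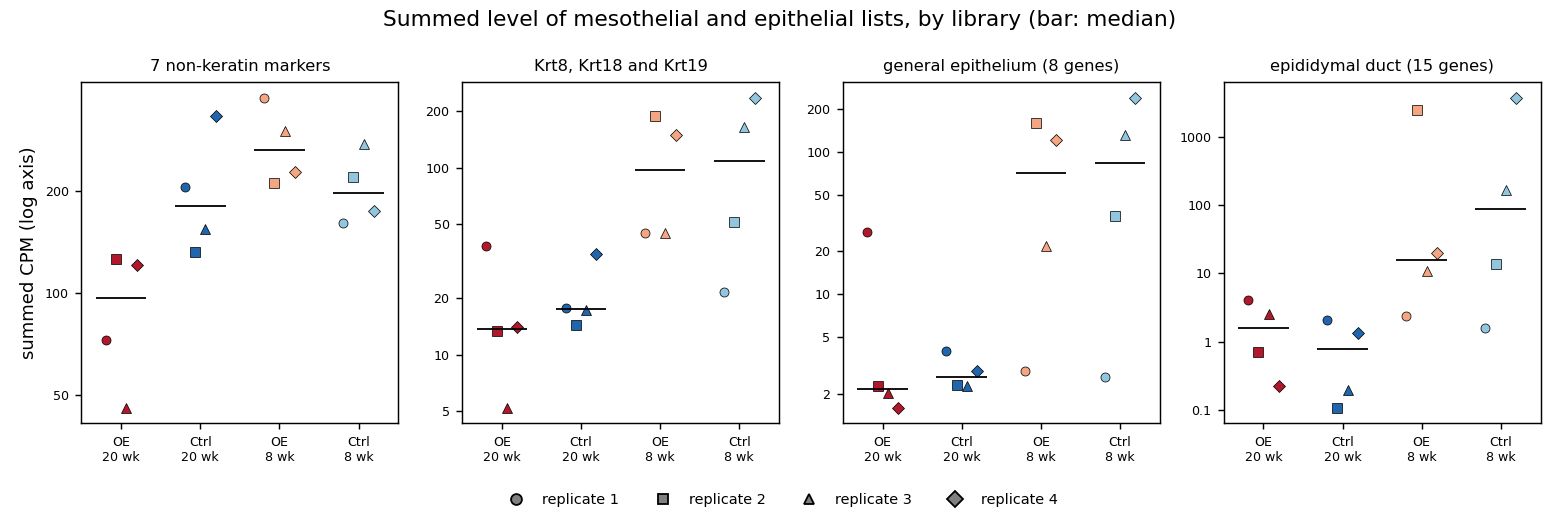
Summed CPM on a log axis in 16 libraries for the 7 non-keratin markers, the 3 keratins, 8 general epithelial genes and 15 epididymal duct genes, with 1 point per mouse, the shape giving the replicate and the bar the group median. The keratin and general epithelium panels are both high in OE replicates 2 and 4 and Ctrl replicates 3 and 4 at 8 weeks and in OE replicate 1 at 20 weeks, whereas Ctrl replicate 4 at 20 weeks is the highest of its group for the keratins (34.5 CPM) and the non-keratin markers (334 CPM) but not for the general epithelial genes (2.91 CPM).

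The comparison of OE with Ctrl mice at 20 weeks asks what the extra LTA4H does late in the diet. No marker was called by edgeR, and 0.0261% of all genes tested were called, all of them higher in OE mice. By unadjusted p under 0.05 the 7 non-keratin markers passed, as did 3.97% of all genes tested. DESeq2 called 0.313% of all genes and 1 marker (Lrrn4, log2 fold change -1.41, adjusted p = 0.0239) and limma with voom quality weights called 0 markers. The median log2 fold change of the 10 was -0.96, against 0.02 for all genes, and 8 of the 10 were negative. Lrrn4 averaged 11.7 ± 5.24 CPM in OE mice and 30.9 ± 13.7 CPM in Ctrl mice (SD, n = 4 each), a log2 fold change of -1.40 ± 0.35 (edgeR adjusted p = 0.701). Upk3b averaged 31.8 ± 14.4 CPM in OE mice and 81.9 ± 38.8 CPM in Ctrl mice, with -1.36 ± 0.38 (edgeR adjusted p = 0.996). Muc16 had -1.28 ± 0.36 and Upk1b -1.16 ± 0.38, and for these 4 genes every OE library was below every Ctrl library. The share of all genes without overlap is not given here, and these 4 varied together from mouse to mouse. Gpm6a had -0.95 ± 0.37, Wt1 -0.90 ± 0.30 and Msln -0.81 ± 0.38, each with overlap. The keratins had -0.97 ± 0.65 for Krt19, 0.48 ± 0.84 for Krt8 and 0.43 ± 0.87 for Krt18, and Krt8 and Krt18 were -0.65 and -0.33 without OE replicate 1 at 20 weeks and both replicates 1 at 8 weeks.

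Individual mice set the ends of the 20-week groups. OE replicate 3 had the lowest OE value of each of the 7 non-keratin markers, and Ctrl replicate 4 the highest Ctrl value of each. Without Ctrl replicate 4 the median log2 fold change of the 10 was -0.64, and without OE replicate 3 it was -0.76. Of other cell types at 20 weeks, 8 B cell genes had a median log2 fold change of -1.98 in OE against Ctrl mice, with 0 called by edgeR, 5 at an unadjusted p under 0.05, 2 called lower by DESeq2 (Ms4a1 and Cd79a) and 0 by voom. Their summed level was 21.2, 96.3, 31.7 and 27.8 CPM in OE mice, against 340, 51.4, 44.3 and 82.8 CPM in Ctrl mice, and its part in the marker levels was not tested.

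At 8 weeks, early in the diet, OE and Ctrl mice overlapped for every marker. EdgeR called 0 of the 10, DESeq2 and voom called 0 each, and edgeR called 0.0208% of all genes tested. An unadjusted edgeR p under 0.05 was reached by 0 of the 10 and by 424 of the 19189 genes tested. The median log2 fold change of the 10 was 0.37, against 0.00 for all genes. In the edgeR fit all 7 non-keratin markers had positive values, from 0.15 ± 0.30 for Wt1 to 0.63 ± 0.38 for Msln. The 95% interval was -0.17 to 1.43 for Msln and -0.43 to 1.15 for Upk3b, so both intervals hold differences of either sign. Krt8, Krt18 and Krt19 had -0.20 ± 0.80, -0.21 ± 0.84 and -0.06 ± 0.63.

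**Figure D4:**
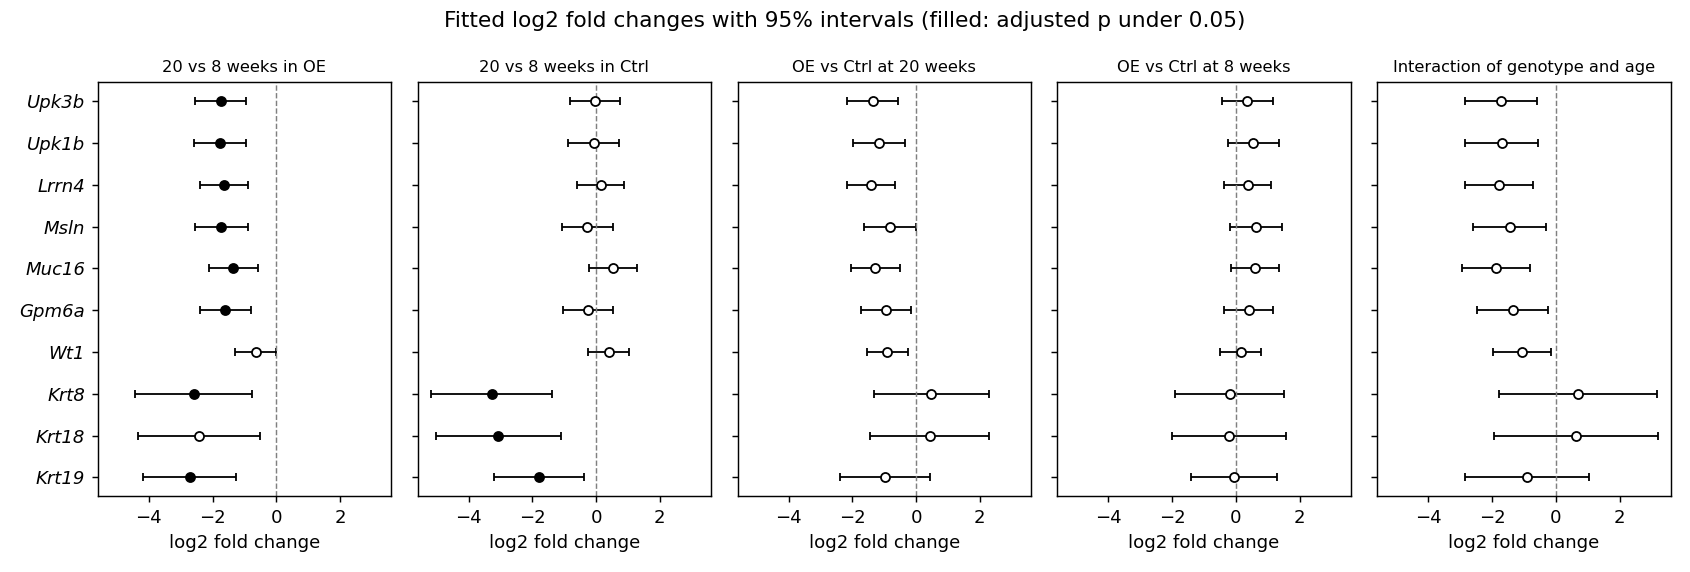
Fitted log2 fold change of each marker (points) with its 95% interval from the edgeR fit (bars) in the 5 comparisons, filled where the adjusted p was under 0.05. In OE mice 8 markers were lower at 20 than at 8 weeks, in Ctrl mice the 3 keratins were, and no marker passed in the other comparisons.

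The interaction asks whether the change with age differed between genotypes, that is the log2 fold change of 20 over 8 weeks in OE mice minus that in Ctrl mice. EdgeR called 0 markers and 0 of all genes tested (0%), DESeq2 and voom called 0 markers, and 7 of the 10, the non-keratin ones, had an unadjusted p under 0.05, as did 3.39% of all genes. The pattern of calls in OE and Ctrl mice is therefore not shown to differ after adjustment. The median of the 10 was -1.40, against 0.02 for all genes. Muc16 had -1.87 ± 0.50, Lrrn4 -1.78 ± 0.49, Upk3b -1.72 ± 0.52, Upk1b -1.70 ± 0.53, Msln -1.44 ± 0.53, Gpm6a -1.36 ± 0.52 and Wt1 -1.05 ± 0.43, each with an edgeR adjusted p of 0.982. The keratins were -0.91 ± 0.91 for Krt19, 0.68 ± 1.16 for Krt8 and 0.64 ± 1.21 for Krt18. It is computed from the same 16 libraries as the comparisons above, so its values are not independent of theirs.

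A second list held 12 other genes known from mesothelium, of which 11 were tested. Calb2, calretinin, was not: it had 0 counts in 13 libraries, 5 in Ctrl replicate 2 at 8 weeks, and 110 and 123 in OE replicate 2 and Ctrl replicate 4 at 8 weeks, the libraries with epididymal transcripts. In OE mice 5 of the 11 were called lower at 20 than at 8 weeks and 0 higher, with a median log2 fold change of -1.24. DESeq2 called 7 lower and voom 5, and both called Aldh1a2 higher; over all genes they called 29.7% and 39.9%. The 5 called lower by edgeR were Nkain4, a protein that interacts with the sodium pump (-1.60 ± 0.36, edgeR adjusted p = 0.00578), Krt7, a keratin (-1.66 ± 0.37, edgeR adjusted p = 0.00636), Ildr2 (-1.26 ± 0.30, edgeR adjusted p = 0.00935), Rspo1, a secreted enhancer of Wnt signalling (-1.45 ± 0.37, edgeR adjusted p = 0.0131), and Bnc1, a zinc-finger factor (-1.39 ± 0.39, edgeR adjusted p = 0.0195). Krt7 thus had a value near those of the non-keratin markers. Not called by edgeR were Slpi (-1.24), Pkhd1l1 (-1.04), Prg4 (-0.47), Cldn15 (-0.28), Pdpn (0.14) and Aldh1a2 (0.66, the retinoic acid enzyme). In Ctrl mice the list had 0 lower and 1 higher, Prg4, the lubricant proteoglycan, at 0.95 ± 0.26 (edgeR adjusted p = 0.0113), with a median of 0.32. Voom called 2 higher (Prg4 and Aldh1a2) and 2 lower (Rspo1 and Ildr2) in Ctrl mice. Between OE and Ctrl mice edgeR, DESeq2 and voom called 0 of the 11 at either age, with 3 at an unadjusted edgeR p under 0.05 at 20 weeks (Nkain4, Pkhd1l1 and Bnc1, median of the list -0.57) and 2 at 8 weeks (Prg4 and Slpi, median 0.22). The interaction had 0 called by edgeR, DESeq2 and voom and 6 at an unadjusted p under 0.05 in edgeR, with a median of -1.21. Over all genes tested, unadjusted p was under 0.05 for 3.97% at 20 weeks, 3.39% in the interaction and 424 of 19189 at 8 weeks.

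Genes that varied most like the 10 markers from mouse to mouse were sought among the 14625 genes whose mean log2 CPM was 0 or more, by the Pearson correlation of their within-group deviations with the mean of the markers' standardised deviations over 16 libraries. The 10 most alike were Nkain4 (r = 0.913), Myrf (0.909), Fras1 (0.895), Pkhd1l1 (0.881), Tmem151a (0.880), Crb2 (0.868), Crym (0.865), Fmod (0.864), Igfbp2 (0.834) and Cxadr (0.832). Fras1 is a matrix protein of basement membranes, Crb2 an apical polarity protein, and Cxadr a junctional adhesion protein. The likeness did not use the group means. It came from the same 16 libraries, so the changes of these genes are not independent of those of the markers. Nkain4 and Pkhd1l1 are also in the second list. Of all genes tested, 9.91% were called lower at 20 than at 8 weeks in OE mice. In OE mice 9 of the 10 were called lower at 20 than at 8 weeks, with a median log2 fold change of -1.48 and values of -2.36 ± 0.34 for Fras1 (edgeR adjusted p = 6.1e-04), -1.79 ± 0.36 for Crb2 (edgeR adjusted p = 0.00356) and -1.53 ± 0.26 for Tmem151a (edgeR adjusted p = 0.00141), while Pkhd1l1 was not (edgeR adjusted p = 0.0515). In Ctrl mice edgeR and DESeq2 called 0 of the 10 most alike, whereas voom called 4 lower (Fmod, Igfbp2, Fras1 and Tmem151a), and the median was -0.21. In edgeR 0 of them had an unadjusted p under 0.05 in Ctrl mice, against 9629 of the 19189 genes tested. For Krt8 and Krt18 together, a search added after the values were seen, the most alike were Myo5b (r = 0.974), Lrp2 (0.970), Patj (0.965), Espn (0.959) and Enah (0.952). Of those 10 genes 8 were called lower in Ctrl mice and 4 (Cgn, Enah, Myo5b and Perp) in OE mice at 20 weeks. Of all genes tested, 21.3% were called lower in Ctrl mice and 9.91% in OE mice. Those genes too were picked from the same libraries.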

How the data were processed

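Messenger RNA of 16 mice was sequenced with stranded TruSeq libraries, per the labels' protocols. The submitters' processing notes name HISAT2 2.1.0, StringTie 2.1.3b, Trimmomatic and bcl2fastq 2.20.0, and mm10 as the build; the annotation and strand setting are not given in the sources used here. The authors deposited read counts per gene, not normalised, which were tested. The deposited FPKM values were not used, and the deposited TPM values gave levels per length.

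In R 4.3.3, edgeR 4.0.16 kept genes with filterByExpr (minimum count 10), scaled by TMM and fitted a robust quasi-likelihood model to all 4 groups of 4 libraries (12 residual degrees of freedom). Adjusted p-values are Benjamini-Hochberg over 19189 genes, with calls under 0.05. The ± after a log2 fold change is its standard error, |log2 fold change| divided by the square root of F, and 95% intervals use the fit's t distribution. Log2 CPM used a prior count of 2. DESeq2 1.42.0, limma 3.58.1 (voom), other filters and omitted libraries were alternatives. P-values measure the spread between these mice. Replicate numbers did not pair the mice: same-numbered libraries correlated at -0.571 to 0.826.

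The members and lists were chosen with earlier results of these data known, as was the choice of libraries to leave out. By rule, all 10 markers are named in each comparison, of other lists up to 4 called genes with the smallest adjusted p (of the second mesothelial list all), and the 10 genes most like the markers. Promoters came from RefSeq tables, which held 6 of the markers. The nerve gene list in Ctrl mice is not reported here.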

Additional observations from a re-analysis of the deposited data

Results flagged for a closer look

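Krt19 in Ctrl replicate 4 at 20 weeks, at 24.4 CPM, lay far from the other 3 libraries of its group, which had 7.72 to 10.5 CPM. The gap was 0.83 of the group's range, above the critical value for 4 samples. That library also had the highest Ctrl value of each of the 7 non-keratin markers at 20 weeks.

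The mean log2 CPM of the 10 markers in OE replicate 3 at 20 weeks was 1.97, against 3.27 to 3.40 in the other 3 libraries of its group, a gap of 0.913 of the range. This library held the lowest OE value of each of the 7 non-keratin markers and of the keratins at 20 weeks. These were 2 of 44 groups of values examined, and chance flags about 1 in 20.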

How the results depend on the processing

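Called counts and medians moved by less than the spread between replicates (medians) or stayed within 1.5 times (counts) in every alternative and comparison, except the count for OE against Ctrl at 20 weeks, which was 1 with DESeq2 and 0 otherwise. The calls of Upk3b, Upk1b, Lrrn4, Msln, Gpm6a and Krt19 between 20 and 8 weeks in OE mice held in all 25 alternatives. Krt8 was no longer called in OE mice with no filter (log2 fold change -2.58), with only the 2 groups (-2.59) or with the replicate block (-2.53), against -2.59. Its call was also lost without both libraries with epididymal transcripts (-2.30). The edgeR adjusted p-values of Krt8 in these alternatives were 0.0713 to 0.114. Krt19 was no longer called in Ctrl mice with no filter or only the 2 groups (-1.83 and -1.82 against -1.80, edgeR adjusted p = 0.0666 and 0.0574). Leaving out 1 library gave 7 to 9 called in OE mice between 20 and 8 weeks and 2 to 3 in Ctrl mice. Over members, 43 values of uncalled members changed sign.

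With voom the OE over Ctrl log2 fold changes at 8 weeks were -0.079 for Wt1, 0.17 for Krt8, 0.33 for Krt18 and 0.22 for Krt19, and at 20 weeks -0.41 for Krt8 and -0.18 for Krt18. Between 20 and 8 weeks in Ctrl mice voom gave -0.27 for Lrrn4 and -0.071 for Wt1, and in the interaction -0.57 for Krt8 and -0.50 for Krt18. Without both libraries with epididymal transcripts Wt1 was -0.0089 and Krt19 0.16 at 8 weeks. Without the 3 libraries that stood apart, Krt8 and Krt18 were -0.65 and -0.33 at 20 weeks, and -0.39 and -0.0572 in the interaction.

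Leaving out 1 library at a time gave, for OE over Ctrl at 8 weeks, -0.039 to 0.27 for Wt1, -0.60 to 0.21 for Krt8, -0.63 to 0.38 for Krt18 and -0.65 to 0.74 for Krt19. At 20 weeks it gave -0.65 to 0.82 for Krt8 and -0.33 to 0.74 for Krt18. In Ctrl mice it gave, for 20 over 8 weeks, -0.40 to 0.16 for Upk3b, -0.34 to 0.11 for Upk1b and -0.19 to 0.34 for Lrrn4, and in the interaction -0.43 to 1.09 for Krt8 and -0.11 to 1.06 for Krt18. The cause was not tested.

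Replicate numbers did not pair the mice. With them as a block, 7 markers were called in OE mice and 3 in Ctrl mice between 20 and 8 weeks and 0 in the other comparisons, and Krt19 at 8 weeks was 0.070. The lowest count of any marker was 36, for Krt18 in OE replicate 3 at 20 weeks, and the part of depth in the spread was not tested.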
